A study of Mus musculus with 3 samples.

Results

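The genes described here encode 10 structural proteins of the Z-disc, the titin and nebulin filaments, the M-band and the intermediate filaments of the muscle fibre: Actn2, Actn3, Ttn, Neb, Tcap, Myoz1, Myoz2, Ldb3, Myom1 and Des. They were chosen by name, with earlier results of these data known, and every non-control probe whose accession belongs to one of them was taken. Their counts beside the shares of all genes are therefore a description and not a test. This gave 24 probes, among 41158 probes with a usable spot on all 3 arrays, and 10 genes among 18348 that could be named. Another 14256 probes of the array could not be named, so further probes of these genes may exist on it. Gene expression had been measured on 3 one-colour Agilent whole mouse genome arrays hybridised with Cy3-labelled RNA, 1 array per group, all of the C2C12 mouse myoblast line. The neurogenic cellulates were C2C12 myotubes taken apart with myoseverin, a microtubule-binding compound, treated for 2 days with BIO, an inhibitor of the kinase GSK-3, and then kept for 7 days in neural induction medium on laminin; per the protocol text this phase included 250 nM reversine for 48 h and 1.5 µM all-trans retinoic acid. The BIO cellulates had the same myotube, myoseverin and BIO steps without the neurogenic phase. The myoblasts were untreated. Per the series text the myotubes had been formed in medium with 2% horse serum over 8 days, with AraC, a nucleoside that kills dividing cells, at 10 µM on days 2 to 4. The BIO dose is 2.5 µM in the sample labels and 10 µM in the protocol, and myoseverin is 20 µM in the series text and 30 µM in the protocol. Myotubes before myoseverin, and cellulates that never saw BIO, were not analysed here. In a comparison with myoblasts, fusion into myotubes, serum, time in culture and the compounds AraC, myoseverin and BIO therefore cannot be told apart. For neurogenic cellulates over myoblasts, reversine, retinoic acid, laminin and the neurogenic medium are added to these. In the comparison of the cellulates, reversine, retinoic acid, laminin, medium and time cannot be told apart.

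In striated muscle the Z-disc anchors the barbed ends of actin filaments, which alpha-actinin dimers cross-link. Titin spans from the Z-disc to the M-band, where myomesins tie it to the thick filaments, and nebulin runs along the thin filament from the Z-disc. Desmin filaments surround the Z-discs and link neighbouring myofibrils. C2C12 myoblasts are mononucleated and build this apparatus as they differentiate into myotubes.

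All levels below are log2 processed signals minus the log2 75th percentile of the same array, so 0 marks the 75th percentile; a level is compared between arrays for the same probe and never between probes. Of 43379 non-control spots, 45.7% were well above background for neurogenic cellulates, 46.9% for BIO cellulates and 50.7% for myoblasts, and 0 were saturated. There were no replicate arrays, so the spread between cultures is unknown and no p-value is given, and the comparisons share arrays. The only repeat measure was within an array. From probes spotted several times, 95% of single-spot differences would lie within 1.38-fold for BIO cellulates over myoblasts, 1.30-fold for neurogenic over BIO cellulates and 1.34-fold for neurogenic cellulates over myoblasts. These limits pool bright and dim probes and are too narrow for dim spots. On the myoblast array the log2 SD between repeat spots was 0.24 below 50 intensity units and 0.12 at 200 or more. A ± after an intensity is the software's own error for 1 spot, and after a log2 ratio that of both spots combined. For the Des levels it is the SD over repeat spots. All 10 skeletal myotube marker genes were well above background on every array, with a summed scaled signal of 3895 in neurogenic cellulates, 5192 in BIO cellulates and 249.9 in myoblasts. The 7 proliferation markers summed to 62.2, 64.9 and 265 in the same order of cultures, with Top2a well above background in neurogenic cellulates alone. In neurogenic cellulates over myoblasts, 6 of these 7 were at least 2-fold lower and 1 higher (all genes: 10% and 12.1%). The 7 cardiac markers, of a tissue that shares members such as Actn2, Myoz2 and Des with skeletal muscle, summed to 4.11, 4.79 and 4.29. Among them Myl7 was not well above background on any array. The 5 smooth muscle markers, of a tissue that shares Des, summed to 314, 520 and 627. The 8 neuronal markers summed to 6.14, 6.30 and 10.8, with Nefl, Syp and Snap25 not well above background on any array. Nefm was well above background in neurogenic cellulates alone and Dcx in BIO cellulates alone. Between the cellulates, 1 of 5 neuronal markers compared was at least 2-fold higher in neurogenic medium and 0 lower (all genes: 4.16% and 1.8%). Each sum is set mostly by the brightest genes of its list. The part of these cell types in the results was not tested. In such bulk RNA, more cells of a type and more RNA per cell cannot be told apart.

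Of the 10 genes, 8 were higher by 2-fold or more in BIO cellulates than in myoblasts and 0 were as much lower, against 11.2% and 6.01% of 12828 genes compared. The same numbers, 8 and 0, were found for neurogenic cellulates over myoblasts, where 12.1% and 10% of 12853 genes passed. Between the cellulates, 1 gene was at least 2-fold higher in neurogenic medium and 0 lower, against 4.16% and 1.8% of 12255 genes. The median log2 ratio over the members compared was 3.18 for BIO cellulates over myoblasts (9 members, all genes 0.00), 4.11 for neurogenic cellulates over myoblasts (9 members, all genes -0.06) and 0.09 for neurogenic over BIO cellulates (8 members, all genes -0.17). Both medians over myoblasts count Myoz2 by its lower bound, which is itself the 3.18, and Tcap as log2 0. Over the 7 members measured on both arrays they were 3.61 and 4.12 (all genes 0.01 and -0.15). Among genes measured on both arrays, 7 of 7 members were higher for BIO cellulates over myoblasts (8.42% of all genes, with 6.13% lower) and 7 of 7 for neurogenic cellulates over myoblasts (9.35%, with 11% lower). Between the cellulates the count was 1 of 8 higher (2.45%) and 0 lower (1.41%). The exceptions were Tcap and Myom1, which gave no fold on any array pair. The 8 genes were also at least 2-fold higher over myoblasts under each of the alternative scalings, background corrections and probe rules tried that gave them a value. The lowest of these log2 ratios was 1.17 for Myoz2 in neurogenic cellulates over myoblasts.

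**Figure D1:**
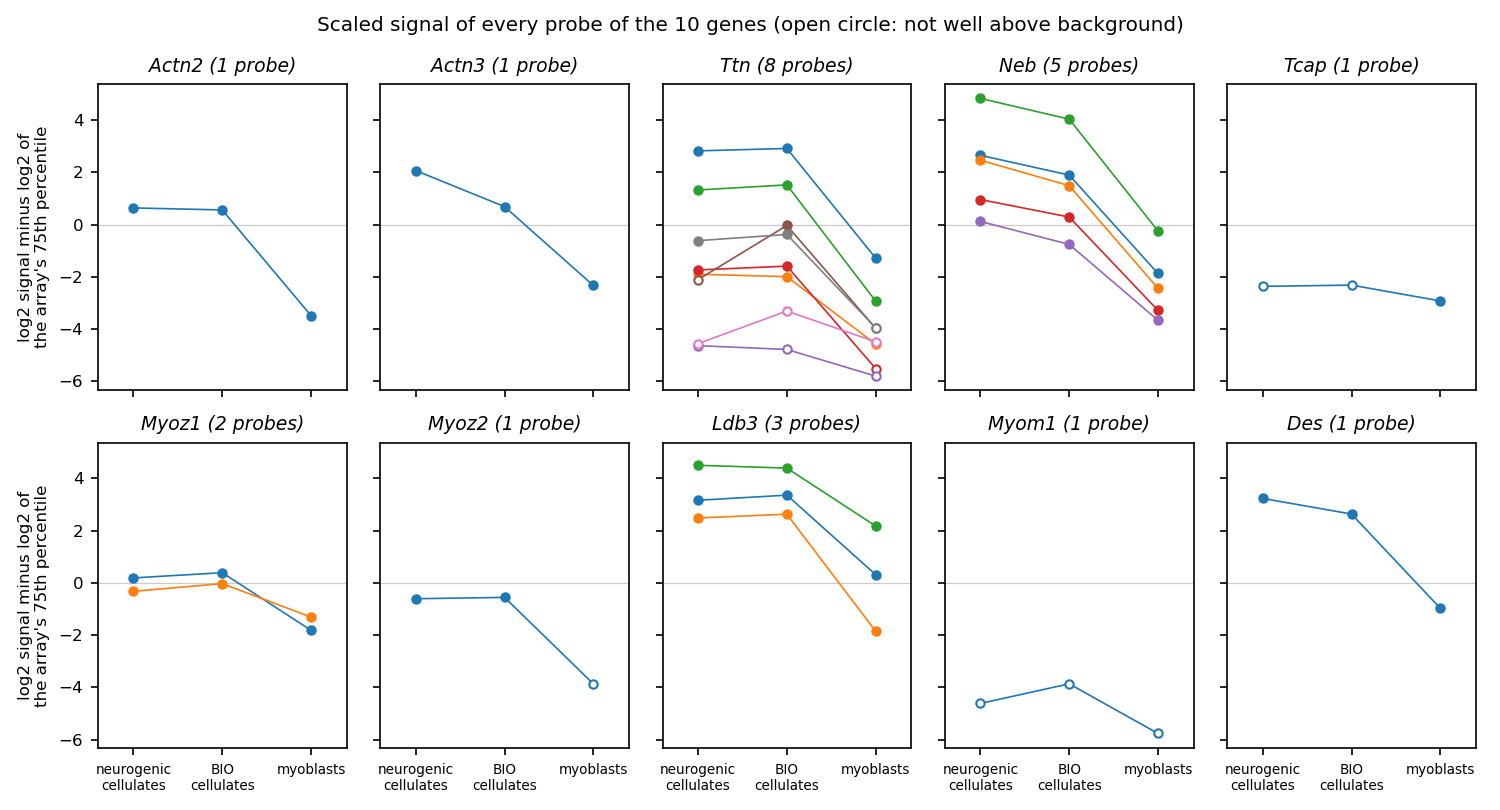
Scaled log2 signal (0 is the array's 75th percentile) of each of the 24 probes on the neurogenic, BIO and myoblast arrays, 1 panel per gene, 1 line per probe; open circles are probes not well above background. In 8 panels the measured probes lie higher on both cellulate arrays than on the myoblast array, whereas Tcap and Myom1 stay near or below background.

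Because 8 of the members were higher together, their promoter windows were read from the RefSeq table of build GRCm38.p6, which spans 250 bases before to 50 after a gene's start and held 6 of the 10 genes (Actn2, Des, Ldb3, Myom1, Myoz2 and Ttn). Both strands were searched for the E-box CANNTG, bound by myogenic bHLH factors, for the MEF2 box and for the CArG box bound by SRF; an E-box with a GC core, the MCAT box and the TATA box were searched too. Overlapping matches were kept, and an E-box with a GC core is also an E-box. The sequences shown, 5′ to 3′ on the gene's strand, are those with a MEF2 or a CArG box, including Myom1, whose probe was not above background, and capitals mark the E-box, MEF2 and CArG matches.
Ttn (chr2:76982498-76982797, strand -): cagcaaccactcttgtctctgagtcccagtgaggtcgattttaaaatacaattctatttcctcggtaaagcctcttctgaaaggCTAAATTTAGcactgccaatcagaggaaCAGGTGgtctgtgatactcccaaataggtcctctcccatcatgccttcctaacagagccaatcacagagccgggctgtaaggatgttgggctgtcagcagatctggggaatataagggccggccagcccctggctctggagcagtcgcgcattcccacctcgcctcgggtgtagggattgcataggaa
Myoz2 (chr3:123034938-123035237, strand -): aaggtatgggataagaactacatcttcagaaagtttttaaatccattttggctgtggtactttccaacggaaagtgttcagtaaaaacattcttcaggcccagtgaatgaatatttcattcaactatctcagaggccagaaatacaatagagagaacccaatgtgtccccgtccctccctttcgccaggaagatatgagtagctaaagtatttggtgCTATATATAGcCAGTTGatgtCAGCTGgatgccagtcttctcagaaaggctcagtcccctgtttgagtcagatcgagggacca
Ldb3 (chr14:34588558-34588857, strand -): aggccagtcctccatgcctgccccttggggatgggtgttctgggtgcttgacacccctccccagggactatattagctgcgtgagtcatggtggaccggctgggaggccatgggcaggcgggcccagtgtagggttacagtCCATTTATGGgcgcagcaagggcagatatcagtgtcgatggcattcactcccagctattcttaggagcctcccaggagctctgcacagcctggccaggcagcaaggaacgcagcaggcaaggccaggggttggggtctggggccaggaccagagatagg
Myom1 (chr17:71019307-71019606, strand +): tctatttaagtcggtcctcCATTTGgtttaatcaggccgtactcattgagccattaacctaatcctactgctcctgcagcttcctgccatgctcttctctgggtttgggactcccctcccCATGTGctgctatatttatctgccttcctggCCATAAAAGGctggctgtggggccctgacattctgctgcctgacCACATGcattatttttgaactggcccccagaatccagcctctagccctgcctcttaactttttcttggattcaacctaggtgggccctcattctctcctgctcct
A MEF2 box match began at position -166 from the start of Ttn and -33 from that of Myoz2, where 3.19% of 32851 windows of the same length hold one. A CArG box match began at -109 from the start of Ldb3 and -99 from that of Myom1, and 1.63% of windows hold one; a second, overlapping Ldb3 window holds the same match. An E-box, present in 72.3% of all windows, was found in Actn2 (3 matches), Des (2), Myom1 (3), Myoz2 (2) and Ttn (1) and not in the Ldb3 windows. The E-box with a GC core was in the Des and Myoz2 windows (16.3% of all), the MCAT box in that of Ttn (14.7%), and the TATA box in 0 of 7 (13.6%). These matches describe letters in the window and show no binding; the array measured RNA and not promoters.

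Among the Z-disc cross-linkers, Actn2, the alpha-actinin of all striated fibres, had levels of 0.64 in neurogenic cellulates, 0.56 in BIO cellulates and -3.48 in myoblasts. It was high in both cellulates at nearly the same level, and low in myoblasts. The log2 ratio was 4.12 ± 0.32 for neurogenic cellulates over myoblasts (17.4-fold), 4.04 ± 0.32 for BIO cellulates over myoblasts (16.5-fold) and 0.08 ± 0.21 between the cellulates, inside the repeat-spot limit. Its myoblast spot read 16.2 ± 3.21 intensity units, close to the lowest signal called well above background on that array, 13.6.

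Actn3, the alpha-actinin of fast fibres, had a level of 2.07 in neurogenic cellulates, 0.69 in BIO cellulates and -2.33 in myoblasts. Its 3 levels were all separated by more than repeat-spot error. The ratio was 21.1-fold for neurogenic cellulates over myoblasts, 8.10-fold for BIO cellulates over myoblasts and 2.61-fold for neurogenic over BIO cellulates (log2 1.38 ± 0.21). It was the 1 member at least 2-fold different between the cellulates, and 97.6% of genes compared there had a lower ratio; over the 9 alternatives its log2 ratio ran from 1.22 to 1.76. The alpha-actinins of non-muscle cells and stress fibres went the other way. Actn1 had levels of 3.31, 4.14 and 4.88 in neurogenic cellulates, BIO cellulates and myoblasts, and Actn4 levels of 5.57, 6.35 and 7.21. Actn1 was 2.98-fold and Actn4 3.12-fold lower in neurogenic cellulates than in myoblasts, and the ratios for BIO cellulates over myoblasts were log2 -0.74 and -0.87.

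The calsarcins Myoz1 and Myoz2 bind alpha-actinin and the phosphatase calcineurin at the Z-disc, Myoz1 mainly in fast fibres and Myoz2 in slow fibres and heart. The brighter Myoz1 probe had levels of 0.19 in neurogenic cellulates, 0.39 in BIO cellulates and -1.81 in myoblasts. It was 4.01-fold higher in neurogenic cellulates than in myoblasts and 4.61-fold higher in BIO cellulates than in myoblasts, while its second probe gave 1.98-fold and 2.43-fold. Myoz2 had levels of -0.60 in neurogenic cellulates and -0.55 in BIO cellulates, and its myoblast spot, at -3.87, was not well above background. It was therefore at least 8.75-fold higher in neurogenic cellulates and at least 9.06-fold higher in BIO cellulates than in myoblasts. Neither gene differed between the cellulates beyond repeat-spot error. Both cellulate cultures thus carried RNA of the fast-fibre and of the slow-fibre calsarcin.

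Ldb3 encodes the PDZ and LIM domain protein ZASP, also called Cypher, which binds alpha-actinin. Over myoblasts, its probes gave the widest range of log2 ratios of any member, among probes measured on both arrays. Probe A_52_P389874 had levels of 4.50 in neurogenic cellulates, 4.40 in BIO cellulates and 2.18 in myoblasts, or 5.01-fold and 4.65-fold for the cellulates over myoblasts. Probe A_51_P265351 had levels of 2.49, 2.63 and -1.85, or 20.2-fold and 22.3-fold, and probe A_51_P265348 had 7.20-fold and 8.25-fold. All 3 probes were high in both cellulates and lower in myoblasts, and the log2 ratios of BIO cellulates over myoblasts spanned 2.26 from lowest to highest probe. The first of these probes is assigned to transcript NM_011918 and the others to NM_001039076.

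Tcap encodes telethonin, which caps the ends of titin in the Z-disc. Its 1 probe read 30.3 ± 8.27 intensity units in neurogenic cellulates, 23.1 ± 5.36 in BIO cellulates and 23.9 ± 4.39 in myoblasts. Only the myoblast spot was called well above background. The signal there was too close to the background of the cellulate arrays to give a fold in either direction, so a difference in Tcap was not detectable with this probe. No other member was well above background in myoblasts and not in cellulates.

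Titin was read by 8 probes, 6 of transcript NM_011652 and 2 of NM_028004. The brightest, A_51_P148509, had levels of 2.82 in neurogenic cellulates, 2.92 in BIO cellulates and -1.28 in myoblasts, a ratio of 17.2-fold for neurogenic cellulates over myoblasts and 18.3-fold for BIO cellulates over myoblasts. The other probe measured on all 3 arrays, A_51_P401792, gave 19.1-fold and 21.8-fold. For BIO cellulates over myoblasts another 4 probes were dim in myoblasts and gave bounds of at least 3.34-fold, 4.42-fold, 10.2-fold and 13.0-fold. The remaining 2 probes were dim on all 3 arrays. All 6 probes that gave a value were thus higher in BIO cellulates than in myoblasts.

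Between the cellulates, 5 titin probes had log2 ratios from -0.24 to 0.09, all inside the repeat-spot limit. Probe A_52_P524700, of transcript NM_028004, did not follow them. It read 36.2 ± 8.18 intensity units in neurogenic cellulates, not well above background, 112 ± 12.2 in BIO cellulates and 11.6 ± 3.82 in myoblasts. By its bound it was 4.21-fold lower in neurogenic than in BIO cellulates. The dim neurogenic signal itself set this bound, so with its error the fold may also be smaller. In contrast A_51_P401792, named for the same transcript, had a log2 ratio of -0.19 ± 0.21. Taking the median level over all 8 probes, dim ones included, moves the titin log2 ratio between the cellulates to -0.83, against -0.09 by the brightest probe. The difference of A_52_P524700 rests on 1 spot per array, and where along the transcript each probe lies was not analysed here.

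Nebulin had the largest ratios over myoblasts when each member is read by its brightest probe. For BIO cellulates, however, it was within repeat-spot error of titin and of Actn2. By another of their probes, Ldb3 (22.3-fold) and titin (21.8-fold) stood higher there than any nebulin probe. The 5 nebulin probes were well above background on every array. Probe A_51_P495331 had levels of 4.83 in neurogenic cellulates, 4.04 in BIO cellulates and -0.24 in myoblasts. All 5 probes lay in that same order, highest in neurogenic cellulates and lowest in myoblasts. Neurogenic cellulates were 13.8-fold to 33.7-fold above myoblasts over the 5 probes, and BIO cellulates 7.50-fold to 19.4-fold. By the brightest probe Neb ranked 30th of 12853 genes in the first of these comparisons and 34th of 12828 in the second. Between the cellulates the log2 ratios of the 5 probes were 0.67 to 0.98, or 1.59-fold to 1.97-fold higher in neurogenic cellulates, each beyond the repeat-spot limit of 0.38 and below 2-fold. The brightest probe passed 2-fold with quantile normalisation (log2 1.03) and with spike-in scaling (1.17). Nebl, the nebulin relative of heart, was not well above background on any array.

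**Figure D2:**
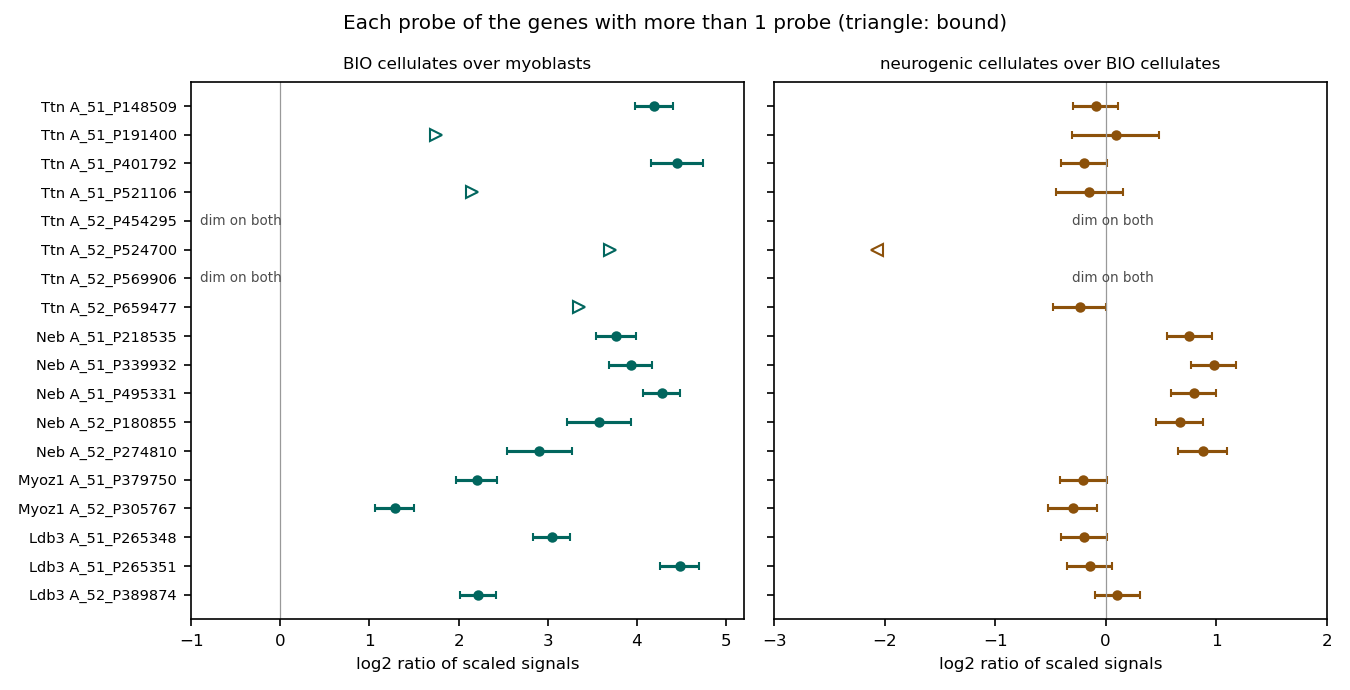
Log2 ratio of scaled signals for every probe of Ttn, Neb, Myoz1 and Ldb3, BIO cellulates over myoblasts on the left and neurogenic over BIO cellulates on the right; bars are the software's error for the 2 spots, and triangles are bounds where 1 of the 2 spots was dim. The 5 Neb probes lie together at 0.67 to 0.98 on the right, and the titin probe A_52_P524700 stands apart at a bound of -2.07.

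At the M-band, Myom1, which encodes the myomesin that cross-links titin and myosin, was not well above background on any array: its probe read 6.36 ± 6.23 intensity units in neurogenic cellulates, 7.90 ± 4.24 in BIO cellulates and 3.33 ± 3.33 in myoblasts. No difference in Myom1 was detectable with this probe. Its relative Myom2, of fast fibres, had levels of -0.31 in neurogenic cellulates and 0.41 in BIO cellulates and was dim in myoblasts, so it was at least 10.7-fold and at least 17.6-fold higher in the cellulates than in myoblasts. Myom3 was well above background in neurogenic cellulates alone, at least 2.90-fold above myoblasts and at least 1.42-fold above BIO cellulates.

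Des encodes desmin, the muscle intermediate filament protein, and its probe was spotted 10 times on each array. The level was 3.24 ± 0.05 in neurogenic cellulates, 2.64 ± 0.11 in BIO cellulates and -0.97 ± 0.10 in myoblasts (mean and SD over 10 spots of 1 array, which are not replicate cultures). The 10 spots ran from 3.13 to 3.31 in neurogenic cellulates, from 2.48 to 2.79 in BIO cellulates and from -1.15 to -0.82 in myoblasts. No spot of one array overlapped those of another. The ratio was 18.5-fold for neurogenic cellulates over myoblasts, 12.2-fold for BIO cellulates over myoblasts and 1.51-fold for neurogenic over BIO cellulates. Vimentin (Vim), the intermediate filament gene of mesenchymal cells and myoblasts, had levels of 7.35 in neurogenic cellulates, 8.58 in BIO cellulates and 8.85 in myoblasts. Vim was 2.35-fold lower in neurogenic than in BIO cellulates and 2.84-fold lower than in myoblasts, whereas Des was higher in both of these comparisons.

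**Figure D3:**
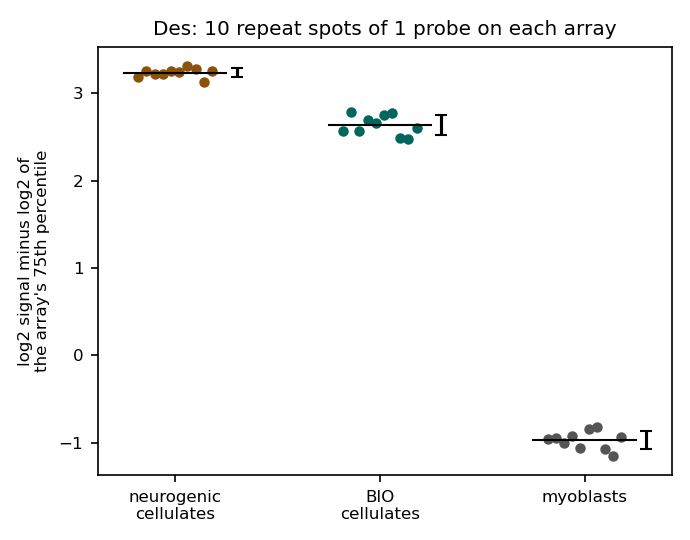
Scaled log2 signal of the 10 repeat spots of the Des probe on each array, with the mean (line) and SD over spots (bar). The spots of neurogenic cellulates (3.13 to 3.31), BIO cellulates (2.48 to 2.79) and myoblasts (-1.15 to -0.82) form 3 separate sets.

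**Figure D4:**
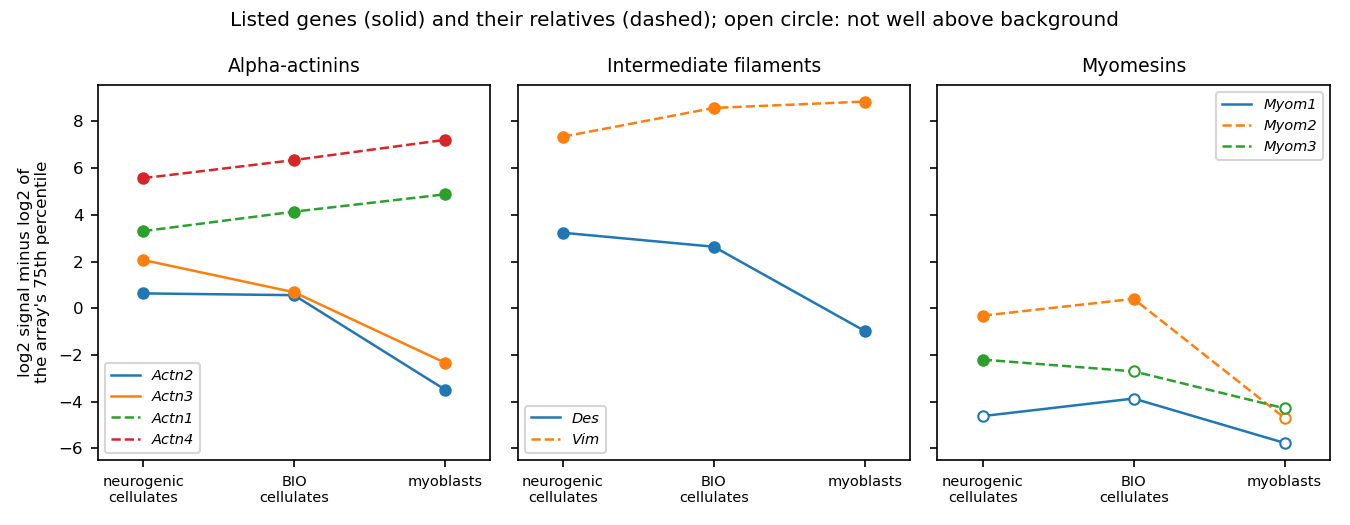
Scaled log2 signal on the 3 arrays of the listed genes (solid lines) and their relatives (dashed lines) among alpha-actinins, intermediate filament genes and myomesins; open circles are not well above background, and only the course of a line, not its height, is compared between genes. Actn2, Actn3 and Des are lowest in myoblasts, while Actn1, Actn4 and Vim are highest there. For Vim the BIO cellulates (log2 -0.27 over myoblasts) lie inside the repeat-spot limit of 0.46.

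Over myoblasts, the ratios of the members therefore spread from 4.01-fold (Myoz1) to 33.7-fold (Neb) for neurogenic cellulates and from 4.61-fold (Myoz1) to 19.4-fold (Neb) for BIO cellulates, taking the brightest probe of the 7 genes measured on all 3 arrays. In BIO cellulates over myoblasts, each of these 7 genes had a ratio above at least 98.8% of the genes compared. Between the cellulates, by the brightest probe and with 75th-percentile scaling, Actn3, Neb and Des differed beyond repeat-spot error, each higher in neurogenic cellulates. With spike-in scaling Actn2 (log2 0.45) and Ldb3 (0.48) also passed that limit. The titin probe A_52_P524700, which is not the brightest, was lower in neurogenic cellulates by its bound above.

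**Figure D5:**
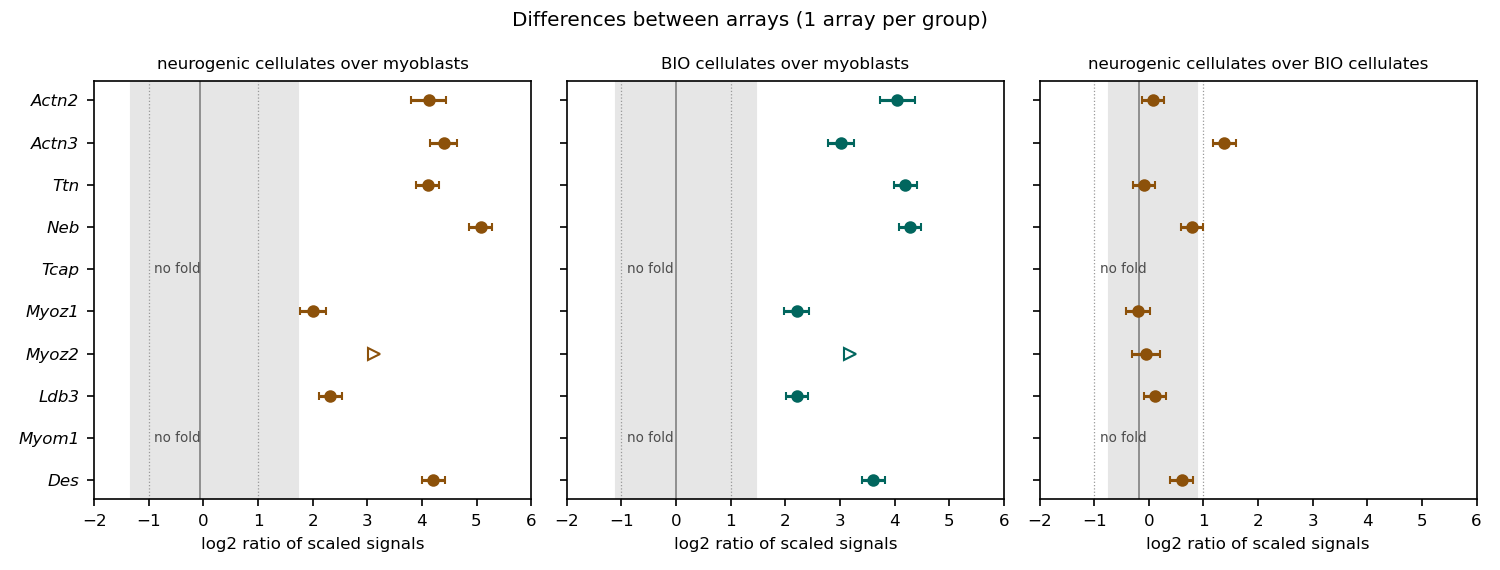
Log2 ratio of scaled signals of the 10 genes by their brightest probe in the 3 comparisons; bars are the software's error, open triangles are lower bounds, the grey band holds the middle 90% of all genes compared, the grey line their median, and dotted lines mark 2-fold. Over myoblasts 8 genes lie right of the band, and between the cellulates Actn3 alone does.

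Other genes of the same structures were taken from lists of related proteins. Of 23 other Z-disc and Z-disc-associated genes on the array, 17 were compared between BIO cellulates and myoblasts; 9 were at least 2-fold higher and 0 lower, with a median log2 ratio of 1.13 (all genes: 11.2% higher, 6.01% lower). Xirp1, an actin-binding repeat protein gene, was 36.7-fold higher, and Csrp3, which encodes the muscle LIM protein, 26.6-fold. Xirp2 was at least 7.26-fold higher and Klhl41, a muscle kelch-repeat gene, 5.18-fold. Flnc, the muscle filamin gene, was not among them, with levels of 4.67 in neurogenic cellulates, 5.35 in BIO cellulates and 5.58 in myoblasts (this gene was picked after its values were seen).

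For neurogenic cellulates over myoblasts, 2-fold or more separated 10 of 18 of these Z-disc genes, 9 of them higher and 1 lower (all genes: 12.1% and 10%). Xirp1 was 29.5-fold, Xirp2 at least 17.9-fold, Csrp3 13.9-fold and Bag3, a co-chaperone gene of Z-disc protein turnover, at least 6.45-fold higher. The lower one was Pdlim5, an enigma-family Z-disc gene, at 2.45-fold, which was named after its value was seen. Between the cellulates 3 of 18 were at least 2-fold higher and 2 lower, with a median of -0.25 (all genes: 4.16% and 1.8%). Bag3 was at least 3.23-fold higher in neurogenic cellulates, Xirp2 2.47-fold and Capza2, an actin-capping protein gene, at least 2.18-fold, while the small heat shock gene Cryab was 2.21-fold and the kelch gene Klhl40 2.16-fold lower, the last named after its value was seen.

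Of 15 other M-band and titin-associated genes on the array, 12 could be compared between BIO cellulates and myoblasts, and 4 of them were higher by 2-fold or more and 0 lower (all genes: 11.2% and 6.01%). Among these were Myom2, Mybpc1, a myosin-binding protein C gene (at least 10.5-fold), and the ubiquitin ligase gene Trim54 (7.87-fold). For neurogenic cellulates over myoblasts 7 of 14 were at least 2-fold higher and 0 lower (all genes: 12.1% and 10%), among them Mybpc1 (at least 25.0-fold) and Trim54 (6.20-fold). Most of these are bounds: among genes measured on both arrays the counts were 1 of 8, against 8.42% of all genes, and 2 of 8, against 9.35%. With so few genes these counts are not set apart from the background. Between the cellulates 1 of 13, Mybpc1, was higher, at 2.37-fold (all genes: 4.16%).

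For the last lists, the shares of all genes higher and lower are 11.2% and 6.01% for BIO cellulates over myoblasts, 12.1% and 10% for neurogenic cellulates over myoblasts, and 4.16% and 1.8% between the cellulates. The non-muscle relatives had a median log2 ratio of -0.74 for BIO cellulates over myoblasts, and 2-fold or more separated 3 of 9 genes, all lower, among them the filamin gene Flna (2.10-fold) and the LIM protein gene Csrp1 (at least 2.27-fold). For neurogenic cellulates over myoblasts the median was -0.94, with 4 of 9 lower, including Flna at 3.92-fold, and with Pdlim1, a PDZ and LIM protein gene, 3.87-fold higher. Between the cellulates 2 of 9 were at least 2-fold higher in neurogenic medium, Pdlim1 at least 2.41-fold and Csrp1 at least 2.35-fold, each dim in BIO cellulates. Among 8 intermediate filament and linker genes other than Des, 0 of 7 compared differed by 2-fold between BIO cellulates and myoblasts. For neurogenic cellulates over myoblasts 1 of 8 was higher, the keratin gene Krt18 (at least 7.28-fold), and 2 were lower, Vim and the lamin gene Lmna (2.34-fold); between the cellulates Krt18 was at least 3.77-fold higher, and Vim was the 1 gene lower.

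Over the 3 arrays, the genes nearest to the median course of the 7 members measured throughout were Gsta1, Filip1, Pgam2, Ptp4a3 and Klf15, at Euclidean distances of 0.35 to 0.51 on the log2 scale among 10659 other genes measured on all 3 arrays. With 3 points per gene this is a description of likeness only.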

How the data were processed

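RNA of 3 C2C12 cultures was read on 1 array each. Cy3-labelled cRNA was made from 200 ng of RNA, per the labels. The arrays, of design 014868 with build mm9 named, were read with Agilent Feature Extraction 10.7.3.1, per the file headers, which wrote a background-subtracted, detrended linear intensity per spot, with an error and a background flag. The authors' deposited table holds log2 values equal to the log2 scanner intensity plus a constant of 0.23, 0.67 and 0.00 for neurogenic cellulates, BIO cellulates and myoblasts; they are not centred by gene, have medians of 7.88, 7.77 and 7.42, and run in the direction of signal. Setting arrays to an equal 75th percentile would need 0.22, 0.66 and 0.00; how the constants were chosen is unknown. It had 0 columns of other samples.

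Control and outlier spots were left out, repeat spots averaged on the log2 scale, and each array's log2 75th percentile over non-control spots (156, 115 and 181 intensity units in the same order) subtracted. Of 41174 probes, 26918 were named by accession through the RefSeq table of assembly GRCm38.p6; probe and gene positions are not given, since the builds differ, and the coordinates of promoter windows are those of GRCm38.p6. A gene took its brightest probe over the 3 arrays. Where 1 of 2 spots was not well above background, the fold is a bound, the bright signal over the higher of the dim signal and the array's lowest signal well above background (26.2, 17.3 and 13.6 units); a bound under 1-fold counts as log2 0, and a gene whose brightest probe was dim while another of its probes was not was left out of counts (69 for BIO cellulates over myoblasts, 45 between the cellulates, 82 for neurogenic cellulates over myoblasts). A bound does not include the error of either spot. Calls were made at 2-fold, and the calling was tested on simulated data. Python 3.11.15, numpy 2.4.6, pandas 2.3.3, R 4.3.3 and limma 3.58.1 (normexp) were used. The files hold no mean spot signal, so normexp used median signals with an offset of 50.

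The members and lists were chosen with earlier results of these data known. All 10 members are named, as are the relatives Vim, Actn1, Actn4, Myom2, Myom3 and Nebl; Myoz3 was to be named too but had no named probe. Up to 4 genes with the largest ratio past 2-fold are named per related list and comparison; other genes are marked as named after their values were seen. Some listed genes are counted but not reported here by name. The gene list nearest in course was set by Euclidean distance of gene-centred levels.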

Additional observations from a re-analysis of the deposited data

How the results depend on the processing

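With 1 array per group, leaving out an array gives no comparison, and repeat-spot limits cover error within an array alone. No paired analysis was possible because each group has 1 array and no replicate. Of 226 member ratios recomputed under the 9 alternatives, 184 moved by less than the repeat-spot limit, 42 by more and 0 turned in direction past 2-fold. Many of the 184 could not move. For a gene measured on both arrays, leaving out dim genes or dropping the filter changes nothing. The median over probes changes nothing for a gene with 1 probe, and the deposited values differ from the scanner's by a constant per array. The count is therefore no measure of stability. The median of the members for BIO cellulates over myoblasts, 3.18, was 2.46 with median scaling of the arrays and 1.84 after normexp correction, which adds an offset and shrinks ratios by construction. For neurogenic cellulates over myoblasts, 4.11 became 3.38 with median scaling, 2.14 after normexp correction, 3.13 with the probes of a gene summarised by their median and 3.68 with no filter on dim probes. The count of members at least 2-fold higher in neurogenic than in BIO cellulates was 2 with quantile normalisation and 2 with spike-in scaling, Neb joining Actn3, against 1. Median scaling shifted the median of all genes by -0.66 for BIO cellulates over myoblasts and by -0.73 for neurogenic cellulates over myoblasts, and spike-in scaling shifted it by 0.36 between the cellulates; the members' median stood 3.12, 4.16 and 0.28 above that of all genes there. Of all genes at least 2-fold different, the share higher in BIO cellulates than in myoblasts was 65.1%, but 9.07% with median scaling and 81.0% with no filter; for neurogenic over BIO cellulates it was 69.9%, from 62.5% with no filter to 92.6% with spike-in scaling; for neurogenic cellulates over myoblasts it was 54.7%, from 11.5% with median scaling to 82.1% with spike-in scaling. The share of all genes at least 2-fold higher in BIO cellulates than in myoblasts ran from 2.34% (normexp) to 23.9% (no filter), and over myoblasts the neurogenic share ran from 4.07% to 27.9% likewise. Signal over background limits Myom1 on every array, Tcap on both cellulate arrays, and the myoblast side of Myoz2 and of 4 titin probes.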

Other observations

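In the authors' deposited table, a value was present for 19 of the 24 member probes in neurogenic cellulates, 20 in BIO cellulates and 16 in myoblasts. These were the same probes as those well above background on each array, with 0 exceptions, so Myom1 has no value there and Tcap has one in myoblasts alone. The values of that table gave a log2 ratio of 1.39 for Actn3 and 0.80 for Neb between neurogenic and BIO cellulates.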
